A study of Mus musculus with 18 samples.

Results

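The 9 genes described here encode regulators of RNA decay and of proliferation: Zfp36, Zfp36l1, Zfp36l2, Zc3h12a, Zc3h12d, Rc3h1, Btg1, Btg2 and Tob1. They were taken from a list of mouse symbols matched to the Ensembl gene IDs of the tables, and all 9 were found among the 55487 gene IDs. Their transcript levels were read in regulatory T (Treg) cells, CD4+Foxp3+ T cells that restrain immune responses, sorted fresh from untreated wild-type mice, out of peripheral blood and 5 other organs: bone marrow, lung, liver, lymph node and spleen. Each organ had 3 libraries of polyadenylated RNA, 18 in all. The labels give no sorting gates, age or sex, and do not say how the organs were turned into cell suspensions, how many mice each library stands for or whether the 3 libraries of an organ were sorted separately. The p-values below therefore measure only the spread between these libraries, which may be technical.

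A messenger RNA is usually destroyed by first losing its poly(A) tail, mainly through the CCR4-NOT deadenylase complex. Zfp36 (tristetraprolin) and its relatives Zfp36l1 and Zfp36l2 are zinc finger proteins that bind AU-rich elements in the 3′ untranslated region (UTR) and bring CCR4-NOT to the transcript. Rc3h1 (Roquin-1) binds stem-loops and also recruits CCR4-NOT, while Zc3h12a (Regnase-1) is an endonuclease that cuts stem-loop transcripts and Zc3h12d is a member of the same family. Btg1, Btg2 and Tob1 are antiproliferative adaptors that bind the deadenylase subunits Cnot7 and Cnot8. In T cells these proteins are known for holding back cytokine and costimulator transcripts and for keeping resting cells quiescent.

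Zfp36, Zfp36l1, Zfp36l2 and Rc3h1 carry the 9-base AU-rich motif bound by the Zfp36 family, UUAUUUAUU, in their own 3′ UTR. The motif is shown because the level of a transcript that holds it can depend on the same proteins, and because tristetraprolin is known to act on its own messenger RNA. The sites, read from the GRCm38 genome with the GENCODE M21 annotation, lie on the minus strand of chr7:28376951-28376979, chr12:80108167-80108195 and chr17:84184914-84184942 for the 3 Zfp36 family genes and on the plus strand of chr1:160970043-160970071 for Rc3h1. Capitals mark the motif.
Zfp36: uaugacgacuUUAUUUAUUguauuaagau
Zfp36l1: aacuguuggaUUAUUUAUUuuagaaauuc
Zfp36l2: acuauuuaacUUAUUUAUUaucuugugaa
Rc3h1: acuuuacucaUUAUUUAUUgagaugagga
These 4 of the 9 genes hold the motif once each, against 6.93% of 20591 genes with an annotated 3′ UTR, whose lengths differ. The 3′ UTR was 774 bases long in Zfp36, 1835 in Zfp36l1, 1822 in Zfp36l2 and 7181 in Rc3h1. The other 5 genes had no match in this transcript, and a match is a description of letters, not a shown binding site.

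The level of each transcript is given in TPM, a share of all transcripts that is corrected for transcript length and scaled to a common total, so it keeps no record of read depth. Between 14314 and 19797 genes had a value above 0 in a library, and no pair of tables was identical. Foxp3, Cd4 and Cd3e were present in all 18 libraries. Foxp3 had a mean of 88.6 TPM in blood and 238 TPM in lymph node. The libraries also held transcripts of other cells. The summed level of 14 myeloid markers was 28730 to 29390 TPM in blood and 38510 to 38790 TPM in bone marrow, against 47.1 to 82.5 TPM in lymph node, 160 to 381 TPM in liver, 661 to 792 TPM in spleen and 1762 to 1812 TPM in lung. The 6 erythroid markers summed to 10930 to 11970 TPM in liver, 6314 to 6502 in bone marrow, 2826 to 2992 in blood and 1840 to 1983 in spleen. In lung they summed to 1426 to 1540 and in lymph node to 72.65 to 75.44. Blood held 2123 to 2170 TPM of 6 platelet markers, against at most 80.78 elsewhere, and 508 to 565 of 6 cytotoxic cell markers, against at most 115. The 6 B cell markers summed to 456 to 515 TPM in spleen, 464 to 496 in bone marrow and 534 to 559 in blood, against at most 146.5 elsewhere. The 4 lung epithelium markers summed to 221 to 291 TPM in lung and to at most 1.62 TPM elsewhere. A second scaling was therefore carried beside the deposited values: each library was multiplied so that 20 T cell genes, such as Cd3e and Lck, had the same median level. It multiplied blood by 1.6, bone marrow by 1.1, lung by 1.08, spleen by 0.905, liver by 0.854 and lymph node by 0.741 on average, and moved the median of all genes by up to 0.88 on the log2 scale between a pair of organs. In bulk libraries, fewer cells of a type and less RNA per cell cannot be told apart.

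All 9 genes differed among the 6 organs at an adjusted p under 0.05 in limma's moderated F test on log2(TPM + 1), where 68.0% of the 16694 tested genes did. With the blood and bone marrow libraries left out, 9 of 9 still passed among the remaining 4 organs, where 48.1% of genes passed. Zc3h12d was the closest to the threshold there, with an adjusted p of 0.0439. The range of organ means was 2.80 log2 units for Zfp36, 2.15 for Tob1, 1.84 for Btg2, 1.79 for Zc3h12a, 1.53 for Zfp36l1 and 1.47 for Zfp36l2. It was 0.96 for Zc3h12d, 0.87 for Rc3h1 and 0.60 for Btg1, below the median of 1.15 over all tested genes. Of the 135 comparisons of a gene between a pair of organs, 105 passed the threshold. Over all genes, 14.3% to 43.7% passed in a pair. The libraries of the organs did not overlap in those 105, nor in 8 of the 30 that did not pass. The share without overlap over all genes was not counted.

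**Figure D1:**
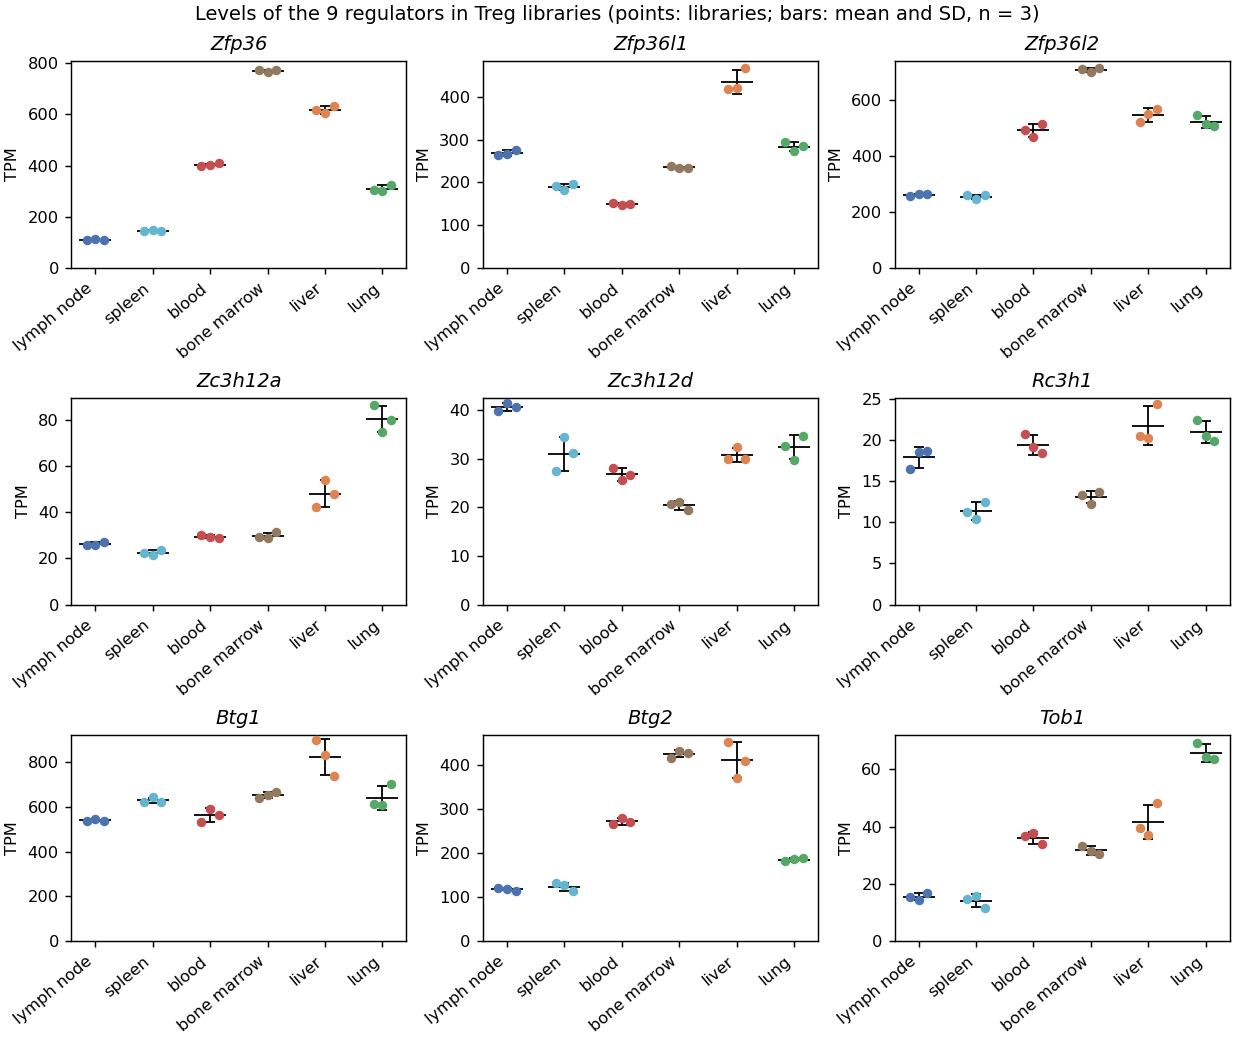
Transcript level in TPM (vertical axes, from 0) of the 9 regulators in Treg libraries from the 6 organs (horizontal axes); points are libraries, and bars are the mean and SD of 3. Zfp36, Btg2 and Zfp36l2 are lowest in lymph node and spleen, Zc3h12a and Tob1 are highest in lung, and Btg1, Rc3h1 and Zc3h12d span less than 1 log2 unit.

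Liver and lung were compared first with spleen and lymph node. In liver over spleen, 8 of the 9 were higher and 0 were lower, where 14.0% of all tested genes were higher in liver and 17.3% were lower, and the median difference of the 9 was 1.10 log2 units toward liver. In lung over spleen, 7 were higher and 0 lower, where 18% of all genes were higher in lung and 22.8% were lower. In liver over lymph node, 7 were higher and 1, Zc3h12d, was lower, with backgrounds of 9.45% and 21.6%. In lung over lymph node, 6 were higher and 1, again Zc3h12d, was lower, with backgrounds of 14.9% and 27.4%. After scaling to the T cell genes the counts were 8 higher and 0 lower for liver over spleen, 9 and 0 for lung over spleen, 8 and 0 for liver over lymph node, and 8 and 0 for lung over lymph node. The share of all genes higher in the organ named first was then 11.3%, 24.0%, 12.2% and 27.7%.

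Comparisons with blood turned on the scaling. As deposited, 6 of the 9 were higher in liver than in blood and 0 were lower, where 16.1% of all genes were higher in liver and 23.3% in blood, but 1 was higher and 7 were lower after scaling to the T cell genes, when 60.8% of all genes were lower in liver than in blood. Against spleen, blood was higher for 6 and lower for 1 as deposited, with backgrounds of 20.1% and 15.3%, and higher for 9 after scaling, when 51.8% of all genes were higher in blood. Against lymph node, blood was higher for 4 and lower for 2, with backgrounds of 16.4% and 21.0%, and higher for 9 after scaling, when 56.1% of all genes were. Lung was higher than blood for 5 and lower for 2, with backgrounds of 17.3% and 26.4%, which became 2 and 6 after scaling, when 8.02% of all genes were higher in lung and 49.1% in blood. Bone marrow was higher than blood for 5 and lower for 2, with backgrounds of 18.8% and 13.0%, which became 1 and 5, when 7.44% of all genes were higher in bone marrow and 33.1% in blood.

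As deposited, bone marrow had the highest mean of Zfp36, Zfp36l2 and Btg2. After scaling to the T cell genes, bone marrow was no longer told apart from blood for Zfp36l2 or Btg2. Bone marrow was higher than spleen for 6 of the 9 and lower for 1, with backgrounds of 18.2% and 5.92%, and higher than lymph node for 5 and lower for 3, with backgrounds of 13.7% and 8.89%. With the T cell scaling these counts were 8 and 1, with backgrounds of 32.5% and 3.07%, and 7 and 1, with backgrounds of 39.1% and 2.08%. Liver was higher than bone marrow for 6 and lower for 2, with backgrounds of 9.36% and 25.1%, and lung for 5 and 3, with backgrounds of 13.2% and 30.3%. After scaling they were 3 and 3 for liver, with backgrounds of 4.0% and 42.7%, and 5 and 3 for lung, with backgrounds of 12.6% and 31.4%. Between liver and lung, 4 were higher in liver and 2 in lung, with backgrounds of 17.6% and 17.3%, and 3 and 4 after scaling, with backgrounds of 9.51% and 28.8%. Spleen and lymph node had the fewest calls: 2 genes were higher in spleen and 3 in lymph node, where 4.44% and 9.87% of all genes were. That count fell from 5 to 3 without spleen replicate 1, lymph node replicate 2 or lymph node replicate 3, and with the T cell scaling it was 4 higher in spleen and 0 higher in lymph node, with backgrounds of 8.19% and 1.81%.

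Of the AU-rich element binding proteins, Zfp36 (ENSMUSG00000044786, chr7:28376784-28380253, minus strand of GRCm38) had the widest range. It read 109, 112 and 110 TPM in the lymph node libraries and 143, 148 and 144 TPM in spleen. The lung libraries held 303, 299 and 325 TPM, and those of blood 400, 402 and 408 TPM. Liver held 616, 604 and 633 TPM, and bone marrow 774, 767 and 774 TPM. No library of an organ reached the range of another organ, and all 15 pairs of organs passed the test. Bone marrow was 7.0-fold above lymph node (log2 difference 2.80, SE 0.04, adjusted p = 6.74e-17) and liver was 4.26-fold above spleen (2.08, SE 0.04, adjusted p = 5.68e-15). The 14 myeloid markers summed to 160 to 381 TPM in liver and 661 to 792 TPM in spleen, and the 6 erythroid markers to 10930 to 11970 TPM in liver and 1840 to 1983 TPM in spleen. Bone marrow and blood held far more myeloid marker RNA than the other organs. The part of myeloid and erythroid RNA in these Zfp36 levels was not tested. Liver was above blood by 0.61 log2 units (SE 0.04, adjusted p = 4.07e-09) as deposited, but blood was above liver after scaling to the T cell genes, with scaled means of 646 and 528. A predicted antisense gene, Gm44710, overlaps Zfp36 and stayed at or below 2.07 TPM.

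Zfp36l2 (ENSMUSG00000045817, chr17:84183931-84187947, minus strand), the relative with the highest level in spleen, was likewise highest in bone marrow and low in spleen and lymph node, over a narrower range. Its libraries read 259, 246 and 260 TPM in spleen and 257, 263 and 263 TPM in lymph node, which overlapped (adjusted p = 0.774). They read 494, 468 and 515 TPM in blood, 547, 515 and 508 TPM in lung and 522, 551 and 569 TPM in liver, 3 organs whose neighbours in this order overlapped and did not pass. Bone marrow lay above all other libraries at 713, 702 and 715 TPM, 2.78-fold over spleen (log2 difference 1.47, SE 0.05, adjusted p = 2.38e-12). Bone marrow and blood also held far more myeloid marker RNA than the other organs, and its part in the Zfp36l2 level was not tested. With the T cell scaling, blood (788) and bone marrow (780) had nearly the same scaled mean, liver fell below lung and blood, lung fell below blood, and spleen passed lymph node. The antisense gene AC132455.1 overlaps Zfp36l2 and reached at most 9.37 TPM.

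Zfp36l1 (ENSMUSG00000021127, chr12:80107754-80113013, minus strand) had another order. Its libraries read 418, 421 and 468 TPM in liver, above every other library. Lung followed at 295, 273 and 284 TPM and lymph node at 265, 265 and 277 TPM, and these overlapped (adjusted p = 0.225). Bone marrow read 237, 234 and 235 TPM, spleen 192, 183 and 195 TPM, and blood 152, 148 and 150 TPM, with no overlap. Liver was 2.91-fold above blood (log2 difference 1.53, SE 0.05, adjusted p = 1.28e-12), a difference that shrank to 0.63 with the T cell scaling, and 2.3-fold above spleen (1.19, SE 0.05, adjusted p = 4.37e-11). Liver stayed highest with the T cell scaling, whereas spleen took the lowest place from blood, and blood also passed lymph node. Lymph node was above bone marrow by 0.19 log2 units (SE 0.05, adjusted p = 0.00992) as deposited, and without lymph node replicate 3 the adjusted p was 0.0538. The T cell scaling turned this difference to 0.38 in favour of bone marrow. The liver libraries also held the most erythroid marker RNA, and its part in the Zfp36l1 level was not tested.

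Ratios within a library do not depend on its scaling, and those within the Zfp36 family lay apart in many of the organs. The log2 ratio of Zfp36 to Zfp36l2 was -1.23, -1.22 and -1.25 in lymph node, -0.86, -0.73 and -0.84 in spleen, and -0.85, -0.78 and -0.64 in lung. It was -0.31, -0.22 and -0.34 in blood, 0.12, 0.13 and 0.11 in bone marrow, and 0.24, 0.13 and 0.15 in liver. Zfp36 was thus 0.425 times as abundant as Zfp36l2 in lymph node and 1.13 times as abundant in liver, with spleen overlapping lung and the liver libraries just above those of bone marrow. Zfp36l1 stood close to Zfp36l2 in lymph node, with log2 ratios of 0.04, 0.01 and 0.07, and was 0.332 times as abundant in bone marrow and 0.306 times in blood. Ratios were described without a test.

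**Figure D2:**
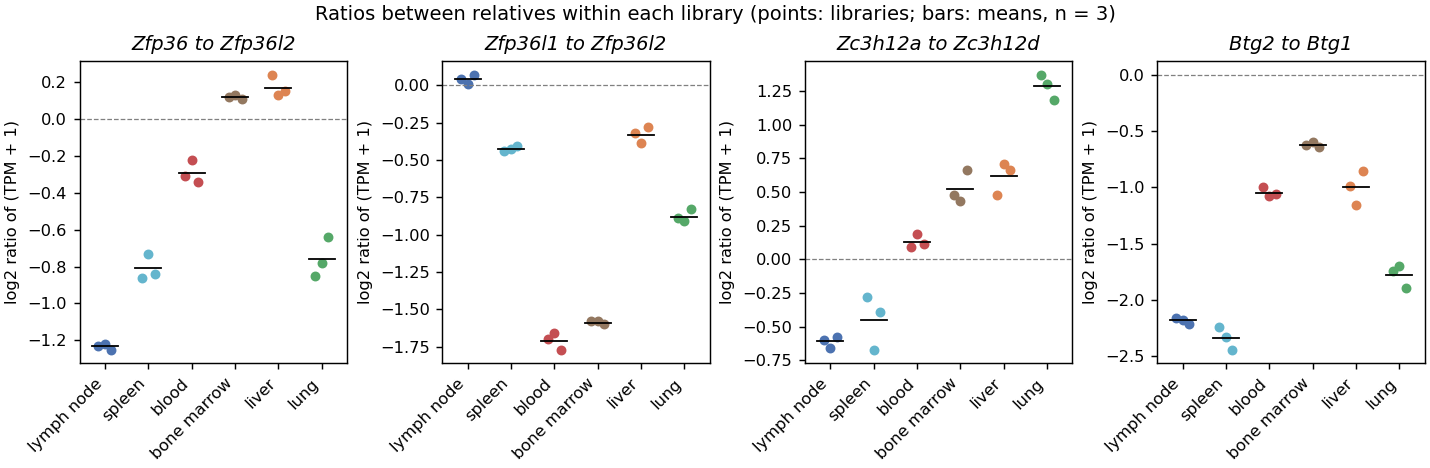
Log2 ratio of (TPM + 1) between related genes within each library (vertical axes) by organ (horizontal axes); points are libraries, bars are the mean of 3, and the dashed line marks equal levels. Zfp36 passes Zfp36l2 only in bone marrow and liver among the 6 organs, and the mean ratio of Zc3h12a to Zc3h12d runs from 0.653 in lymph node to 2.44 in lung.

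Of the endonuclease family, Zc3h12a (ENSMUSG00000042677, chr4:125118423-125127840, minus strand) was highest in lung. The lung libraries read 86.3, 74.9 and 80.0 TPM and the liver libraries 42.2, 53.8 and 47.9 TPM. The other 4 organs lay between 21.4 and 31.3 TPM: spleen at 22.5, 21.4 and 23.6, lymph node at 25.9, 25.8 and 27.0, bone marrow at 29.3, 28.9 and 31.3, and blood at 30.0, 29.2 and 28.9. Lung and liver each stood apart from all other organs. Lung was 3.58-fold above spleen (log2 difference 1.79, SE 0.09, adjusted p = 3.85e-10) and 1.68-fold above liver (0.74, SE 0.09, adjusted p = 1.79e-05). Lung kept the highest level with the T cell scaling, at a scaled mean of 87.0, while blood (47.1) then passed liver (41.2) and bone marrow (32.8). The lung libraries were also the ones with lung epithelium markers, at 221 to 291 TPM in sum. Their myeloid markers summed to 1762 to 1812 TPM, above liver, spleen and lymph node but far below bone marrow and blood. The part of either in the Zc3h12a level was not tested.

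Zc3h12d (ENSMUSG00000039981, chr10:7832470-7870396, plus strand) varied less and had another order. It was highest in lymph node, at 39.9, 41.5 and 40.8 TPM, and lowest in bone marrow, at 20.7, 21.2 and 19.4 TPM. Between them lay lung at 32.7, 29.8 and 34.7 TPM, spleen at 27.5, 34.5 and 31.2 TPM, liver at 29.9, 32.5 and 29.9 TPM, and blood at 28.1, 25.6 and 26.8 TPM, and none of these neighbours passed the test. Lymph node over bone marrow was 0.96 log2 units (SE 0.10, adjusted p = 1.33e-06). Lymph node over lung was 0.32 (SE 0.10, adjusted p = 0.014), which was 0.0544 without lung replicate 2 and turned to a difference of 0.21 toward lung with the T cell scaling. That scaling put blood first, at 43.0, above lung, lymph node, spleen and liver. It also raised the myeloid and platelet RNA of the blood libraries, whose part in the Zc3h12d level was not tested. The log2 ratio of Zc3h12a to Zc3h12d was -0.60, -0.66 and -0.58 in lymph node and -0.28, -0.67 and -0.39 in spleen. It was 1.37, 1.30 and 1.18 in lung, and the other 3 organs lay between these ranges.

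Rc3h1 (ENSMUSG00000040423, chr1:160906418-160974978, plus strand), the stem-loop binding Roquin-1, had the lowest mean of the 9 in 5 organs, and in lymph node Tob1 was lower. Its libraries read 11.2, 10.4 and 12.5 TPM in spleen and 13.3, 12.2 and 13.7 TPM in bone marrow, which overlapped (adjusted p = 0.306). Lymph node read 16.4, 18.6 and 18.7 TPM, blood 20.7, 19.1 and 18.4 TPM, lung 22.4, 20.5 and 19.8 TPM, and liver 20.5, 20.2 and 24.4 TPM, and each overlapped its neighbour. Liver was 1.91-fold above spleen (log2 difference 0.87, SE 0.12, adjusted p = 3.8e-05). Lymph node was above bone marrow by 0.42 (SE 0.12, adjusted p = 0.0141). That call was lost without lymph node replicate 2 (0.061), lymph node replicate 3 (0.0627) or bone marrow replicate 2 (0.0665), and the T cell scaling turned it to 0.11 toward bone marrow. Blood was highest with that scaling, at 31.0, above lung (22.6) and liver (18.6). The myeloid and platelet RNA of the blood libraries was raised with it, and its part in the Rc3h1 level was not tested.

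Of the antiproliferative adaptors, Btg2 (ENSMUSG00000020423, chr1:134075170-134079120, minus strand) followed the order of Zfp36. It read 120, 119 and 115 TPM in lymph node and 131, 127 and 113 TPM in spleen, which overlapped (adjusted p = 0.623). Lung read 182, 186 and 188 TPM and blood 265, 280 and 270 TPM. Bone marrow at 415, 430 and 427 TPM and liver at 451, 370 and 408 TPM were highest and overlapped each other (adjusted p = 0.574). Bone marrow was 3.6-fold above lymph node (log2 difference 1.84, SE 0.07, adjusted p = 7.86e-12) and liver 3.31-fold above spleen (1.72, SE 0.07, adjusted p = 1.78e-11). Liver over blood was 0.59 (SE 0.07, adjusted p = 2.67e-06) as deposited and 0.32 toward blood after scaling to the T cell genes. Bone marrow over blood was 0.64 (SE 0.07, adjusted p = 1.78e-06) as deposited. After that scaling it was 0.1 and no longer passed (adjusted p = 0.191), with scaled means of 466.0 and 434.5. Bone marrow and blood held far more myeloid marker RNA than the other organs, and liver held the most erythroid marker RNA. The part of either in the Btg2 level was not tested.

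Btg1 (ENSMUSG00000036478, chr10:96617006-96622809, plus strand) was the most abundant of the 9 in lymph node, spleen, lung, blood and liver, and had the narrowest range. Its processed copies Btg1-ps1 and Btg1-ps2 were listed at 0 in all libraries. Its libraries read 537, 544 and 537 TPM in lymph node, 530, 592 and 563 TPM in blood and 622, 643 and 621 TPM in spleen. Lung read 611, 606 and 700 TPM, bone marrow 638, 653 and 665 TPM, and liver 898, 830 and 736 TPM. The liver libraries lay above all others, although they also spread most. Liver was 1.52-fold above lymph node (log2 difference 0.60, SE 0.07, adjusted p = 5.68e-06), and the other 5 organs were not told apart from their neighbours in the order. After scaling to the T cell genes blood was highest at a scaled mean of 899, with bone marrow (716), liver (700) and lung (691) close together below it. The scaling raised the myeloid and platelet RNA of the blood libraries as well, and its part in the Btg1 level was not tested.

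The log2 ratio of Btg2 to Btg1 was lowest in spleen, at -2.24, -2.33 and -2.44, and in lymph node, at -2.16, -2.18 and -2.21. It was -1.74, -1.70 and -1.89 in lung, -1.0, -1.08 and -1.06 in blood, -0.99, -1.16 and -0.85 in liver and -0.62, -0.60 and -0.64 in bone marrow. Btg2 thus stood at 0.198 times the level of Btg1 in spleen and at 0.651 times in bone marrow. Spleen and lymph node did not overlap, and blood and liver did.

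Tob1 (ENSMUSG00000037573, chr11:94211454-94215495, plus strand) shared with Zc3h12a its highest level in lung. It read 69.3, 64.3 and 63.4 TPM in lung, and 14.9, 15.9 and 11.7 TPM in spleen and 15.5, 14.4 and 16.8 TPM in lymph node. Liver read 39.5, 37.0 and 48.1 TPM, blood 36.8, 37.7 and 33.8 TPM and bone marrow 33.3, 31.4 and 30.4 TPM. Lung stood above all other libraries, and spleen and lymph node lay below all others and overlapped each other (adjusted p = 0.561). Lung was 4.64-fold above spleen (log2 difference 2.15, SE 0.12, adjusted p = 9.92e-10) and 1.58-fold above liver (0.66, SE 0.12, adjusted p = 0.000578). Bone marrow was above lymph node by 0.98 (SE 0.12, adjusted p = 1.27e-05). With the T cell scaling lung remained highest at 71.1, blood followed at 57.8 in place of liver at 35.6, and the difference of lung over blood no longer passed (adjusted p = 0.068, with a range of 1.23e-05 to 0.068 over all alternatives). The lung epithelium markers were also highest in lung, at 221 to 291 TPM in sum against at most 1.62 TPM elsewhere. Myeloid markers summed to 1762 to 1812 TPM in lung, above liver, spleen and lymph node but far below bone marrow and blood. The part of either in the Tob1 level of lung was not tested.

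**Figure D3:**
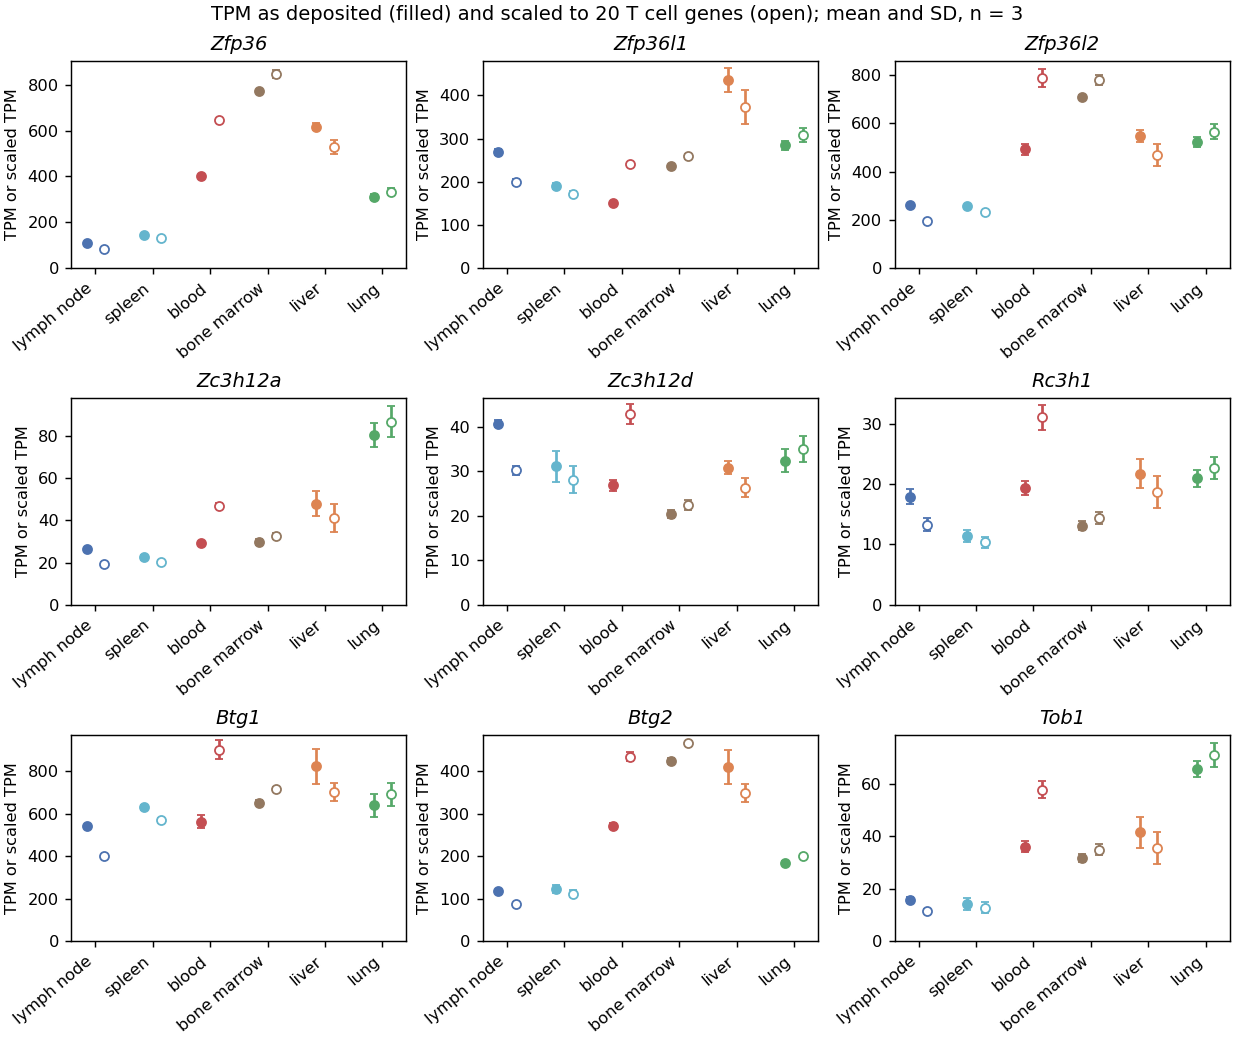
Mean level and SD of 3 libraries for each regulator by organ, as deposited in TPM (filled circles) and after scaling each library to 20 T cell genes (open circles). Scaling raises blood by 1.6 and lowers lymph node to 0.741, so blood takes the highest place for Zfp36l2, Btg1, Rc3h1 and Zc3h12d. The means of Zfp36 and Btg2 stay highest in bone marrow, those of Zc3h12a and Tob1 in lung and that of Zfp36l1 in liver. After scaling, bone marrow and blood are not told apart for Btg2 or Zfp36l2, nor lung and blood for Tob1.

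Because Zfp36 and Btg2 moved together, their promoters are shown: the 250 bases before the start site, from RefSeq on GRCm38.p6, at chr7:28379229-28379478 and chr1:134079156-134079405, both on the minus strand. These elements were searched on both strands of 300-base windows: the cyclic AMP response element (CRE) TGACGTCA, its core TGACG, the AP-1 element TGANTCA and the CArG box bound by serum response factor. Capitals mark the CArG box of Zfp36, 58 bases before the RefSeq start, and the CRE of Btg2, 166 bases before the RefSeq start. The Zfp36 window lies inside the gene span chr7:28376784-28380253 given above, which begins further upstream than the RefSeq start.
Zfp36: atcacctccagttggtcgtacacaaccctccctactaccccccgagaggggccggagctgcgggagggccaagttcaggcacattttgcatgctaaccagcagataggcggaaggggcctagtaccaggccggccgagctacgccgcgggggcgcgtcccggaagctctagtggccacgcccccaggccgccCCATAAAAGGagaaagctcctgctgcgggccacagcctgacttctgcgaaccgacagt
Btg2: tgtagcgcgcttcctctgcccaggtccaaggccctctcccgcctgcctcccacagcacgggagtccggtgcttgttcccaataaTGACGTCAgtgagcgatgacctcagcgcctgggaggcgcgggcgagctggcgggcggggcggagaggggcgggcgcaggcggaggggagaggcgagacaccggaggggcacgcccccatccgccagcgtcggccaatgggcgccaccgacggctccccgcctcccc
A CArG box was found in 1.63% of 32851 promoter windows and a full CRE in 1.79%. The core TGACG, which a full CRE contains, was in 20.8% of windows, and among the 8 regulators with a window it occurred in those of Btg1, Btg2, Tob1 and Zc3h12a. The AP-1 element was in 7.81% of windows and occurred in those of Zfp36l1 and Rc3h1. None of these elements was found in both the Zfp36 and the Btg2 window. These matches describe letters only, and no window was given for Zfp36l2.

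The 3 transcripts most like each regulator were found by the root mean square difference between centred organ means on the log2 scale, over the 6 organs and among genes that reached 10 TPM. Klf2, a transcription factor of resting and recirculating T cells, was nearest to Btg2 (0.19) and to Zfp36 (0.29). Btg2 itself (0.32) and the phosphatase gene Dusp1 (0.35) were next for Zfp36, and Cd69 (0.25) and Tagap (0.29) for Btg2. Klf2 had a mean of 185 TPM in lymph node, 203 in spleen, 343 in lung, 627 in blood, 643 in liver and 776 in bone marrow. Zfp36l2 was most like Serinc3 (0.12), Cep128 (0.17) and Ap3s1 (0.20), and Zfp36l1 like Dot1l (0.10), Dhx35 (0.11) and Ccser2 (0.12). Zc3h12a was most like Zfp655 (0.08), Vgll4 (0.09) and Fam117b (0.10), and Tob1 like Hexim1 (0.17), Fbxo30 (0.21) and Klf11 (0.23). Zc3h12a and Tob1 differed from each other by 0.36, and Zfp36 from Zc3h12d by 1.26.

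The immediate early genes, which are switched on within minutes of a stimulus, were low and high in many of the same organs as Zfp36 and Btg2, which are themselves known to be rapidly induced. All 12 on the list passed the F test, where 68.0% of all tested genes did. The median range was 3.31 log2 units against 1.15 over all genes. Fosb was at 2.78 to 2.86 TPM in lymph node, 11.6 to 13.8 TPM in spleen and 356 to 367 TPM in bone marrow. Fos, which with Jun proteins forms AP-1, was at 48.3 to 49.2 TPM in lymph node and 2184 to 2210 TPM in bone marrow, and Atf3 at 0.34 to 1.05 TPM in lymph node and 81.6 to 86.2 TPM in blood. In liver over spleen 11 of the 12 were higher and 1 lower, in bone marrow over spleen 11 and 1, and in lung over spleen 10 and 1, where 14.0%, 18.2% and 18% of all genes were higher. After scaling to the T cell genes these counts were 10 and 1, 11 and 1, and 10 and 1, where 11.3%, 32.5% and 24.0% of all genes were higher. Bone marrow and blood also held far more myeloid marker RNA than the other organs, and its part in the Fos, Fosb and Atf3 levels was not tested. Neither was the part of the immediate early response in the levels of Zfp36 and Btg2.

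**Figure D4:**
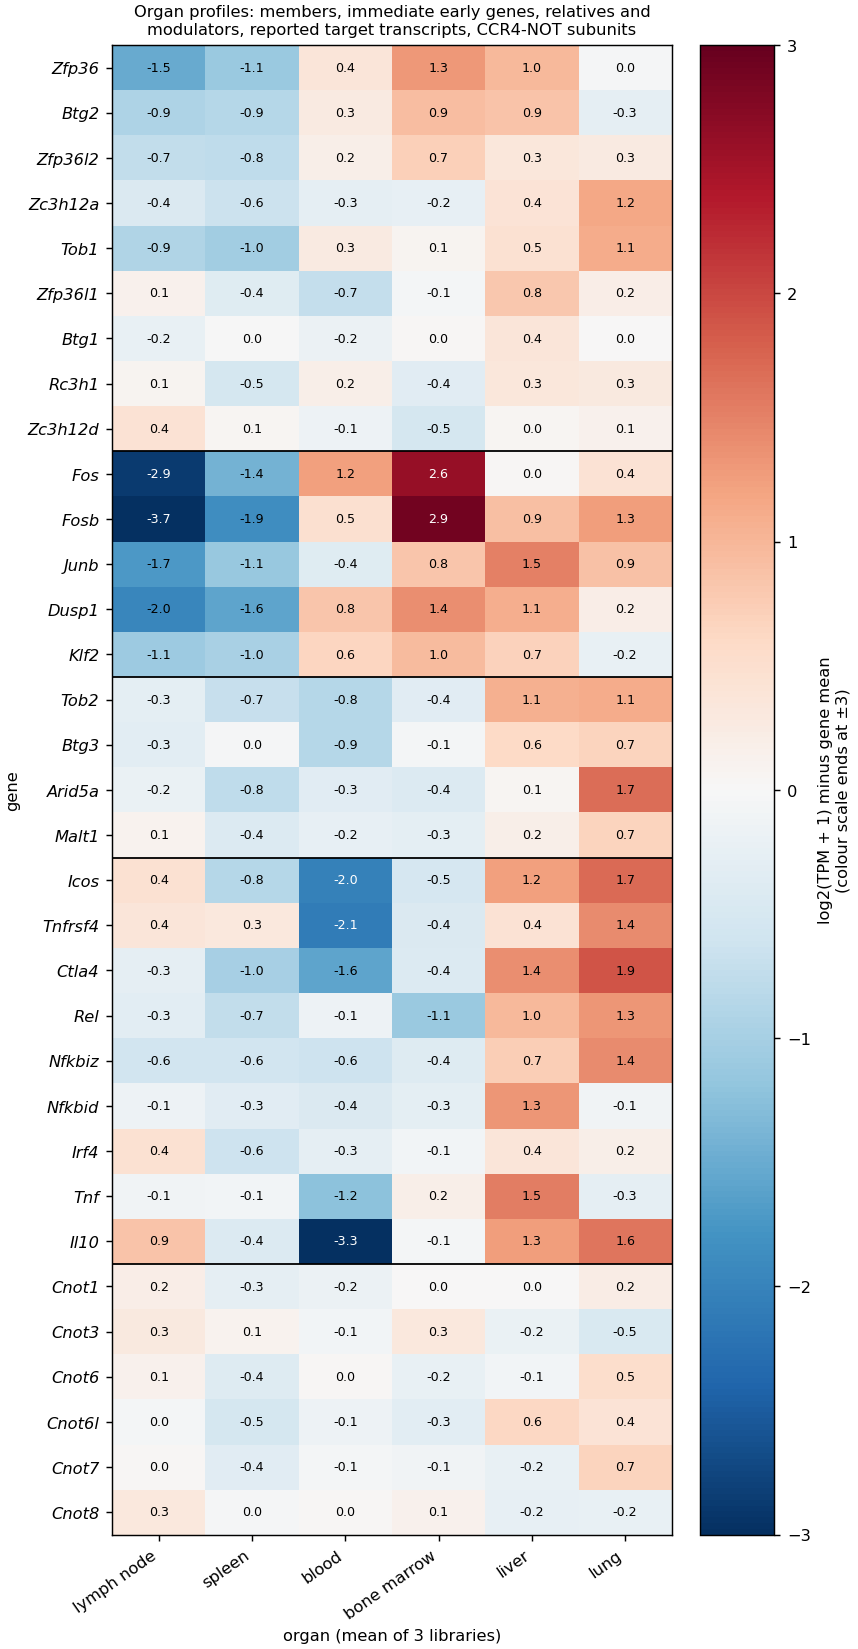
Organ means of log2(TPM + 1) minus each gene's own mean (colour, log2 units, and printed numbers) for the 9 regulators, then blocks of immediate early genes with Klf2, relatives and modulators, reported targets and CCR4-NOT subunits; outside the first block the genes shown were chosen after their values were seen. Zfp36 and Btg2 share with Fos, Fosb and Dusp1 their low levels in lymph node and spleen, while Zc3h12a and Tob1 share their peak in lung with Arid5a, Icos, Ctla4 and Rel.

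Of 7 close relatives of the regulators, 5 were expressed enough to test. Among the organs 4 of these differed, where 68.0% of all tested genes did. Tob2, the relative of Tob1, was highest in lung (121 TPM ± 1.59, SD, n = 3) and liver (120 ± 22.7) and lowest in blood (30.8 ± 4.08, adjusted p = 5.79e-09). Btg3 had its highest mean in lung (51.7 ± 4.69) and its lowest in blood (17.4 ± 0.748, adjusted p = 2.48e-06). Rc3h2, which encodes Roquin-2, ran only from 22.0 TPM in bone marrow to 28.8 TPM in lung (adjusted p = 0.0283). After scaling to the T cell genes lymph node was lowest for 3 of these 4 relatives, spleen for 1 and blood for 0. The share of all genes lowest in each organ was not counted.

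The enzymes that carry out the decay had smaller median ranges than the modulators, targets and immediate early genes. Of 16 genes of the CCR4-NOT and PAN deadenylases and poly(A)-binding proteins, 14 passed the F test, with a median range of 0.61 log2 units. Over all tested genes 68.0% passed, with a median range of 1.15. Pabpc4, a poly(A)-binding protein, ran from 31.5 TPM in blood to 79.2 TPM in bone marrow. The catalytic subunits Cnot6l and Cnot7 were lowest in spleen, at 52.4 and 46.1 TPM, and reached 121 TPM in liver and 95.8 TPM in lung. In lymph node over spleen 8 were higher and 0 lower, where 9.87% of all genes were higher, but with the T cell scaling neither direction held a called gene. That scaling, which multiplied blood by 1.6, put the highest mean of 11 of the 14 in blood, against 0 as deposited. After it, 33.1% to 60.8% of all genes were called higher in blood than in a given other organ. It also moved the lowest mean of Pabpc4 from blood to liver. Of 14 decapping and exonuclease genes 9 passed, a share near the 68.0% of all tested genes, with a median range of 0.72. Exosc10, a nuclear exosome nuclease, had its highest mean in lymph node as deposited, at 70.0 TPM, and in bone marrow after scaling, and its lowest in liver, at 38.0 TPM, and the decapping enhancer Edc4 ran from 31.1 TPM in blood, or from liver after scaling, to 60.9 TPM in lung.

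All 12 modulators of these proteins passed the F test, where 68.0% of all tested genes did, with a median range of 1.05 log2 units. Arid5a, which counteracts Regnase-1 on shared targets, was at 323, 296 and 274 TPM in lung against 51.9 to 98.8 TPM in all other libraries (adjusted p = 2.32e-12). Malt1, the protease that cleaves Regnase-1 and Roquin-1 after T cell receptor signalling, was named after its values were seen. It read 118 to 138 TPM in lung and 55.4 to 61.5 TPM in spleen (adjusted p = 8.1e-06). Mapk14, the p38 kinase whose pathway inactivates tristetraprolin, ran from 61.5 TPM in spleen to 177 TPM in blood. Blood also held far more myeloid marker RNA than spleen, and its part in the Mapk14 level was not tested. The AU-rich element binding protein Khsrp ran from 38.2 TPM in lung to 105 TPM in lymph node, or to blood after scaling to the T cell genes.

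Of 17 transcripts reported as targets of these proteins, 15 differed among the organs, where 68.0% of all tested genes did. Their median range was 3.46 log2 units. As deposited, 8 of those 15 had their highest mean in lung and 3 in liver, and 7 their lowest in blood. The share of all genes with their highest or lowest mean in an organ was not counted. Icos, a costimulator transcript targeted by Roquin-1 and Regnase-1 and named after its values were seen, read 425, 431 and 410 TPM in lung, 299, 314 and 291 TPM in liver and 77.0, 66.2 and 69.7 TPM in spleen. Il10 was at 30.1 to 41.0 TPM in lung and 0.07 to 0.41 TPM in blood, and Ifng had a mean of 77.2 TPM in liver and 2.58 TPM in lymph node. Cxcl2, a chemokine transcript with 4 copies of the UUAUUUAUU motif in its 3′ UTR, ran from 0.18 to 0.29 TPM in lymph node to 104 to 139 TPM in lung. The lung libraries also held more myeloid marker RNA than those of lymph node, and its part in the Cxcl2 level was not tested. In lung over spleen 10 targets were higher and 1 lower, and in liver over spleen 11 and 0, where 18% and 14.0% of all genes were higher. With the T cell scaling these counts were 12 and 1, and 11 and 0, where 24.0% and 11.3% of all genes were higher. The highest mean was then in lung for 9 and in liver for 3 of the 15, and the lowest was in lymph node for 6 and in blood for 4. Icos and Il10 stayed highest in lung and lowest in blood.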

How the data were processed

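Poly(A) RNA of 18 Treg libraries was sequenced, with a directional library kit, per the labels' protocols. For each library the table deposited by the authors gives TPM for 55487 gene IDs; the submitters' processing notes name STAR, RSEM and the mm10 build, without versions. TPM keeps no read depth, so counting intervals could not be given. Gene symbols came from GENCODE M21 (55141 IDs matched).

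Genes whose mean reached 1 TPM in some organ were tested with limma 3.58.1 in R 4.3.3 on log2(TPM + 1), with organ means as the model, trend and robust variance moderation, a moderated F test over the 6 organs, 15 pairwise contrasts and Benjamini-Hochberg adjustment over all tested genes at 0.05. The fit was tested on simulated data. Fold changes on this scale understate changes of low genes. The alternatives were a pseudocount of 0.1, no filter, T cell gene scaling, removal of mitochondrial, ribosomal protein and haemoglobin genes, library weights, the replicate number as a block, each library left out, and blood and bone marrow left out.

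The 9 genes and all lists were chosen with earlier results of these data known. All 9 are named, with up to 3 genes of each other list (those with the largest range that passed the F test and reached 10 TPM) and the 3 genes most like each regulator whose range was at least 1 log2 unit.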

Additional observations from a re-analysis of the deposited data

How the results depend on the processing

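The F test called all 9 regulators under every alternative run. Of the 105 called pairs of organs, 74 kept their call and direction in every alternative, 79 with T cell gene scaling and 99 without the abundant RNA classes. The pseudocount of 0.1 changed 0 of the 135 pairs, and leaving out the filter ended 2 calls. Library weights ended 3 calls and added 4, and removing the abundant RNA classes ended 6 and added 4. Replicate numbers did not pair the libraries: the correlation of deviations from the organ means ran from -0.034 to 0.03 over 45 pairs with the same number and from -0.035 to 0.04 over 90 others, and 9 of 18 libraries were closest to their own number. With the replicate number as a block, 9 regulators were called and 3 of the pair calls were lost.

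Among pairs called as deposited or after scaling, T cell gene scaling turned 26 directions, given here as log2 differences after scaling. Liver over blood became -0.29 for Zfp36, -0.75 for Zfp36l2, -0.2 for Zc3h12a, -0.69 for Zc3h12d, -0.72 for Rc3h1, -0.36 for Btg1, -0.32 for Btg2 and -0.7 for Tob1. Lung over blood became -0.48 for Zfp36l2, -0.29 for Zc3h12d, -0.44 for Rc3h1 and -0.38 for Btg1. Spleen over blood became -0.48 for Zfp36l1, -0.6 for Zc3h12d and -0.66 for Btg1. Lymph node over blood became -0.27 for Zfp36l1 and -0.5 for Zc3h12d. Bone marrow over blood became -0.01 for Zfp36l2, -0.51 for Zc3h12a and -0.33 for Btg1. Outside blood, lymph node over bone marrow became -0.38 for Zfp36l1 and -0.11 for Rc3h1, liver over lung -0.27 for Zfp36l2, liver over bone marrow -0.03 for Btg1, lymph node over lung -0.21 for Zc3h12d, and spleen over lymph node 0.26 for Zfp36l2. The scaling itself moved these values.

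Leaving out 1 library at a time gave 2430 comparisons of a gene between a pair of organs, of which 35 lost a call and 4 gained one. The count of regulators called between spleen and lymph node was 3 to 5 over these fits. The cell cycle list fell from 12 called genes to 7 without blood and bone marrow, where fewer organs and libraries were compared. The share of all tested genes called was then 48.1%, against 68.0% among the 6 organs. TPM keeps no depth, so the depth behind a value is unknown. The liver and lung libraries varied most, with a median coefficient of variation of 10.5% and 8.0% for genes above 100 TPM, against 2.55% to 5.24% in the other organs.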

Other observations

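Cell cycle and quiescence genes were read beside the antiproliferative regulators. All 12 cell cycle genes differed among the organs, where 68.0% of all tested genes did. Of these, 11 were highest in bone marrow, also with the T cell scaling. All 12 were called higher in bone marrow than in blood, as were 18.8% of all genes as deposited and 7.44% after scaling. Cdk1, the mitotic kinase, read 70.1, 71.1 and 64.4 TPM in bone marrow and 2.96, 3.12 and 1.20 TPM in blood. It spread widely within lung, at 29.5, 7.70 and 3.69 TPM. The cyclin transcripts Ccnb1 and Ccna2 had means of 43.1 and 54.4 TPM in bone marrow and 1.68 and 2.39 TPM in blood. In bone marrow the 12 genes summed to a mean of 1031 TPM, and Btg2 had a mean of 424 TPM. The sums were 509 in liver and 463 in lung, with Btg2 at 410 and 185. They were 423 in lymph node, 345 in spleen and 197 in blood, with Btg2 at 118, 124 and 271. A relation between Btg2 and the cell cycle genes was not tested. The bone marrow libraries also held the most myeloid marker RNA, and its part in these levels was not tested.

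Of 13 quiescence genes and cell cycle inhibitors, 12 differed among the organs, where 68.0% of all tested genes did. Cdkn1a, an inhibitor of cyclin-dependent kinases, had a mean of 104 TPM in lung and 5.70 TPM in spleen (adjusted p = 4.78e-10), the pair of organs in which Tob1 and Zc3h12a were also highest and lowest as deposited. Klf4 ran from 0.673 TPM in lymph node to 52.4 TPM in blood (adjusted p = 5.49e-13), in libraries that differed widely in myeloid marker RNA, whose part was not tested.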
